A study of Mus musculus with 27 samples.

Results

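The core circadian clock loop was described in the colonic epithelium as 10 genes of the 46078 with a count row, namely the activators Arntl (also called Bmal1), Clock and Npas2 and the repressors Per1, Per2, Per3, Cry1, Cry2, Nr1d1 and Nr1d2. The genes were chosen by name, as rows whose Ensembl identifier maps to these symbols, and not by a threshold on a measured value. Earlier results of these data were known when they were chosen. All 10 passed the filter on low counts, which kept 16496 genes, and their counts in a single mouse ran from 75 (Arntl) to 2703 (Nr1d1). RNA came from colonic epithelium, scraped from 27 male C57BL/6 mice in 9 groups of 3. The groups received sesame oil vehicle, low doses of TCDD (0.01, 0.03 and 0.1 μg/kg), an intermediate dose of 0.3 μg/kg or higher doses of 1, 3, 10 and 30 μg/kg. This dioxin binds and activates the aryl hydrocarbon receptor (AhR). Mice were gavaged every 4 days, 7 times in all, from day 28 of age, and all were 56 days old when tissue was taken. According to the methods, mice were kept under alternating light and dark, and tissue was collected within the first 3 h after lights on (zeitgeber time 0 to 3), so the data show the clock at 1 point of its cycle and not its rhythm.

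The clock is a feedback loop of transcription. The protein made from Arntl pairs with that of Clock or its paralog Npas2, and the pair binds E-box sequences to switch on the Per, Cry and Nr1d genes. PER and CRY proteins then enter the nucleus and block the pair, while the nuclear receptors encoded by Nr1d1 and Nr1d2 (REV-ERBα and REV-ERBβ) repress Arntl, Npas2, Clock and Cry1. Most cells of the body, intestinal epithelium included, carry this loop, and in tissues with a running clock Arntl and the Per genes peak at roughly opposite times of day.

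Genes lay between 9305441 and 14371035 counts per mouse (median 11651026), and the mice are named here by the numbers in their labels. Mouse 14, given 0.01 μg/kg, stood apart from the other low-dose mice in clock genes, and results that rest on it are given with and without it. Mouse numbers rose with dose, and the time at which each mouse was collected within the 3 h was not given in the sources used here, so the order of the numbers and the dose cannot be told apart. Most sequencing index barcodes occurred in 2 mice. Their first and later use, in order of mouse number, is called 2 rounds here, so the round of all 27 mice was inferred. On this reading vehicle to 0.3 μg/kg fell in the first while 3 to 30 μg/kg fell in the second. The dose of 1 μg/kg had mouse 41 in the first round and mice 43 and 44 in the second. Mouse 28 at 0.1 μg/kg, mice 33, 34 and 35 at 0.3 μg/kg and mouse 41 had barcodes used once. With no repeat to place them, these 5 were counted in the first round. Of 13 epithelial markers, the most abundant were the goblet cell genes Muc2, between 25763 and 47126 CPM (counts scaled to library size by TMM) over the 27 mice, and Fcgbp, between 5506 and 13563 CPM. The general epithelial marker Epcam lay between 864 and 1135 CPM, and Slc26a3 (371 to 1751 CPM) and Aqp8 (103 to 718 CPM), markers of absorptive cells, varied more, these 3 having been chosen after their values were seen. The sum of the 13, carried mostly by Muc2, lay between 49758 and 68846 CPM, and 0 of the 13 were called at any dose from 1 to 30 μg/kg.

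**Figure D1:**
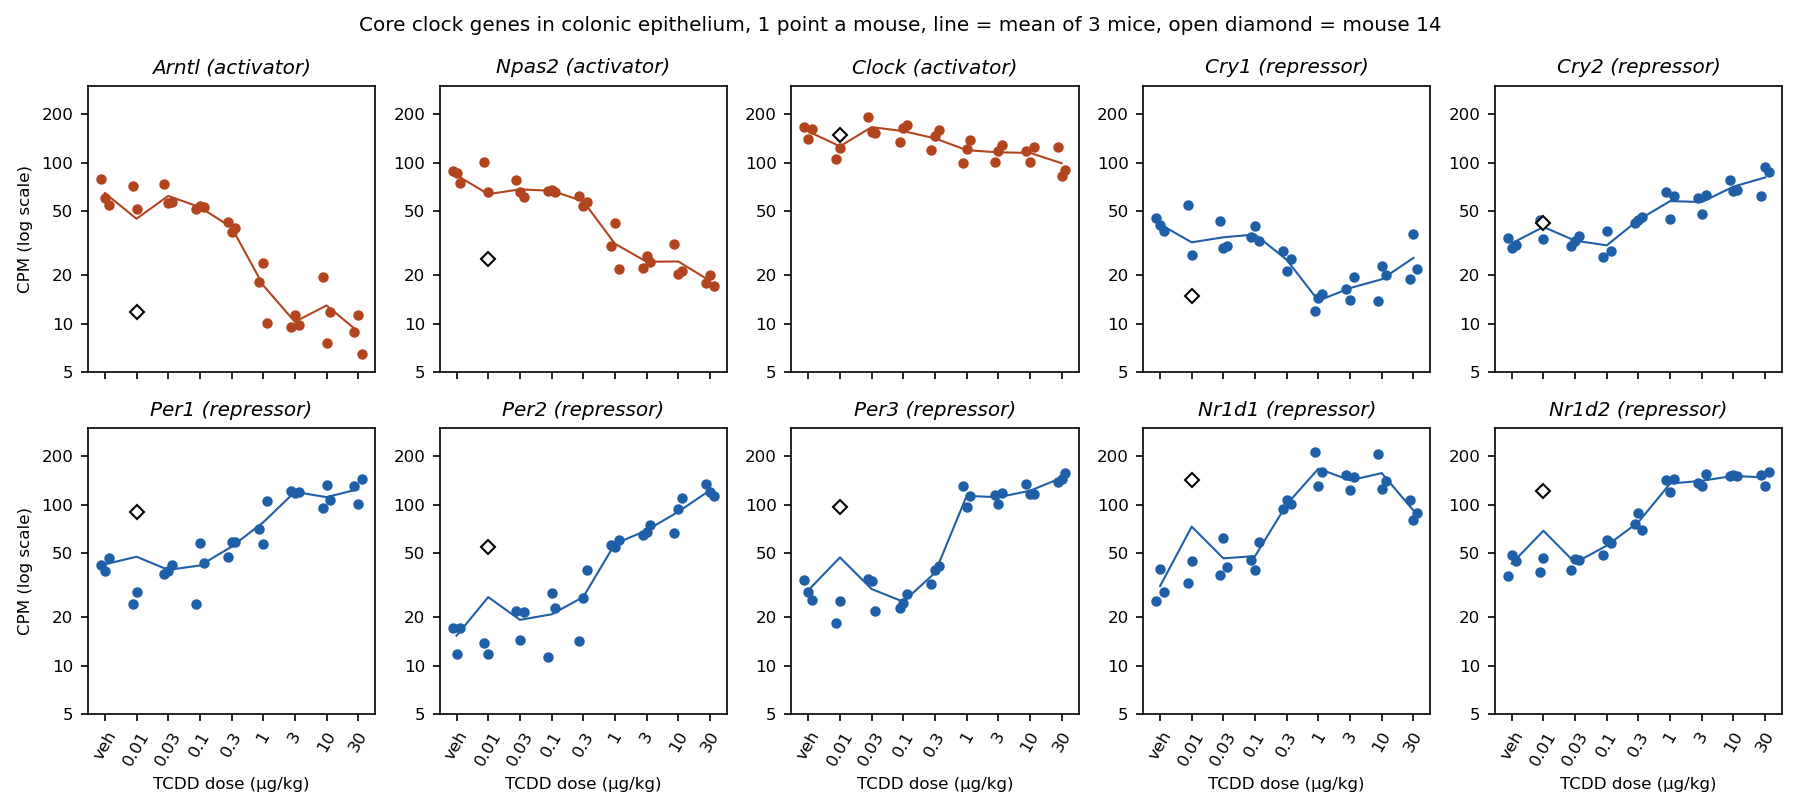
Level of each clock gene in CPM (y axis, log scale) by TCDD dose in μg/kg (x axis), with 1 point for each mouse, a line through the means of 3 mice and an open diamond for mouse 14. Arntl and Npas2 were low and the Per and Nr1d genes high from 1 μg/kg upward, while Clock stayed between 83.3 and 192 CPM throughout.

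Arntl (ENSMUSG00000055116, chr7:113207465-113314126, plus strand, GRCm38), the partner that every activator pair needs, had the largest decrease of the loop. Its level was 79.1, 60.8 and 54.7 CPM in the vehicle mice, 42.7, 37.0 and 39.3 CPM at 0.3 μg/kg, 18.1, 23.8 and 10.1 CPM at 1 μg/kg, and 8.92, 11.4 and 6.47 CPM at 30 μg/kg. All 12 mice at 1 μg/kg or more lay below all the other mice except mouse 14, whose level was 11.8 CPM. The log2 fold change against vehicle was -1.91 at 1 μg/kg (SE 0.40, adjusted p = 0.0352), -2.66 at 3 μg/kg (SE 0.41, adjusted p = 0.00268) and -2.86 at 30 μg/kg (SE 0.42, adjusted p = 0.000142) by the quasi-likelihood test of edgeR, adjusted over all genes after Benjamini and Hochberg. At 0.3 μg/kg the 3 mice already lay below the vehicle range, but the change of -0.71 did not pass (SE 0.38, adjusted p = 0.937).

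Npas2 (ENSMUSG00000026077, chr1:39193731-39363236, plus strand), which can take the place of CLOCK in the pair, followed Arntl at a smaller size. It stood at 89.3, 86.4 and 75.3 CPM with vehicle, at 61.9, 53.7 and 57.4 CPM at 0.3 μg/kg, at 30.5, 42.0 and 21.7 CPM at 1 μg/kg, and at 18, 20.2 and 17.2 CPM at 30 μg/kg. The 12 mice from 1 μg/kg upward did not overlap with the others, again with mouse 14 (25.3 CPM) as the exception. On the log2 scale Npas2 fell by 1.42 at 1 μg/kg (SE 0.29, adjusted p = 0.0316), by 1.79 at 3 μg/kg (SE 0.29, adjusted p = 0.00268) and by 2.18 at 30 μg/kg (SE 0.30, adjusted p = 6.75e-05). Between mice of the same dose Arntl and Npas2 also deviated together, with r = 0.90 for log2 CPM over the 26 mice without mouse 14, a description of mice that share dose groups and library scaling.

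Clock (ENSMUSG00000029238, chr5:76209868-76304792, minus strand), the third activator, changed least of the 10 genes. It was 167, 141 and 162 CPM in vehicle mice, 99.9, 121 and 138 CPM at 1 μg/kg, and 125, 83.3 and 90.2 CPM at 30 μg/kg. The mice at 1 μg/kg lay under the lowest vehicle mouse, and those at 0.01 μg/kg (106, 124 and 149 CPM) reached as low as mice at 10 μg/kg. Against vehicle the log2 fold change was -0.39 at 1 μg/kg (SE 0.16, adjusted p = 0.394), -0.43 at 3 μg/kg (adjusted p = 0.172) and -0.44 at 10 μg/kg (adjusted p = 0.128), none past the threshold. At 30 μg/kg Clock fell by 0.66 (SE 0.16, adjusted p = 0.0108), a 1.58-fold change that lies near the required fold of 1.5. That call was lost when vehicle mouse 2 (adjusted p = 0.0513), mouse 66 (adjusted p = 0.0622) or mouse 67 (adjusted p = 0.0573) was left out.

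Cry1 (ENSMUSG00000020038, chr10:85131700-85185064, minus strand), a repressor that blocks the activator pair, did not move with the other repressors. Its level was 45.5, 41 and 37.9 CPM with vehicle, 28.5, 21.3 and 25.1 CPM at 0.3 μg/kg, 12.0, 14.4 and 15.3 CPM at 1 μg/kg, and 19, 36.1 and 21.8 CPM at 30 μg/kg. The lowest group was that at 1 μg/kg, and at 30 μg/kg mouse 66 came close to the lowest vehicle mouse. Cry1 fell by 1.58 at 1 μg/kg (SE 0.31, adjusted p = 0.0275), by 1.31 at 3 μg/kg (SE 0.31, adjusted p = 0.0323) and by 1.13 at 10 μg/kg (SE 0.30, adjusted p = 0.0411), whereas the change of -0.69 at 30 μg/kg did not pass (SE 0.30, adjusted p = 0.134). Of 15 alternative analyses, 8 lost the call of Cry1 at each of these 3 doses, with an adjusted p of up to 0.245, 0.195 and 0.229 in the same order. At 3 and 10 μg/kg leaving out any 1 of the 3 vehicle mice, or any 1 of the 3 treated mice, was enough. The difference between 1 and 30 μg/kg, 0.89 on the log2 scale (SE 0.31), did not pass the adjustment over all genes either (adjusted p = 0.131), although all 3 mice at 30 μg/kg were higher.

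Its paralog Cry2 (ENSMUSG00000068742, chr2:92403646-92434043, minus strand) went the other way. Cry2 was 34.2, 29.6 and 30.9 CPM with vehicle, 42.2, 44.4 and 46.0 CPM at 0.3 μg/kg, 66.1, 44.9 and 62.5 CPM at 1 μg/kg, and 61.8, 93.8 and 87.5 CPM at 30 μg/kg. Every mouse from 0.3 μg/kg upward exceeded the highest vehicle mouse. Cry2 rose by 0.87 at 1 μg/kg (SE 0.16, adjusted p = 0.0191), by 0.85 at 3 μg/kg (SE 0.16, adjusted p = 0.00683), by 1.17 at 10 μg/kg (SE 0.16, adjusted p = 0.000304) and by 1.36 at 30 μg/kg (SE 0.16, adjusted p = 1.61e-05).

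Per2 (ENSMUSG00000055866, chr1:91415982-91459324, minus strand), whose protein is a limiting part of the repressor complex, had the widest range of the loop, 8.00-fold between its lowest and highest dose means with all mice and 9.62-fold without mouse 14. It was 17.1, 11.8 and 17.3 CPM in vehicle mice, 14.2, 26.6 and 39.5 CPM at 0.3 μg/kg, 56.0, 55.1 and 60.8 CPM at 1 μg/kg, 67.2, 94.1 and 111 CPM at 10 μg/kg, and 136, 121 and 113 CPM at 30 μg/kg. The dose means climbed at each step from vehicle to 30 μg/kg once mouse 14 (54.6 CPM at 0.01 μg/kg) was set aside, with the group at 0.01 μg/kg as the 1 exception (13.8 and 11.8 CPM). The log2 fold change of 1.89 at 1 μg/kg missed the threshold (SE 0.42, adjusted p = 0.0550), and Per2 rose by 2.17 at 3 μg/kg (SE 0.42, adjusted p = 0.00785), by 2.56 at 10 μg/kg (SE 0.42, adjusted p = 0.00162) and by 3.00 at 30 μg/kg (SE 0.43, adjusted p = 0.000125), the last a 7.99-fold change. Without mouse 14 Per2 passed at 1 μg/kg as well.

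Per3 (ENSMUSG00000028957, chr4:151003652-151044665, minus strand), a Per paralog that the loop can run without, had the largest difference between neighbouring doses. Its level was 34, 28.9 and 25.5 CPM with vehicle and 32.3, 39.5 and 41.9 CPM at 0.3 μg/kg, but 131, 96.9 and 113 CPM at 1 μg/kg. It then stayed near that height, with 115, 102 and 119 CPM at 3 μg/kg and 139, 145 and 159 CPM at 30 μg/kg. No mouse at any dose had a level between 41.9 and 96.9 CPM. Per3 rose by 1.95 at 1 μg/kg (SE 0.35, adjusted p = 0.0134) and by 2.32 at 30 μg/kg (SE 0.36, adjusted p = 0.000230), a 5.00-fold change.

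Per1 (ENSMUSG00000020893, chr11:69095217-69109960, plus strand), a Per gene that also answers quickly to light and hormone signals, had not passed the threshold at 1 μg/kg. It was 42.5, 39.0 and 46.6 CPM with vehicle, 47.4, 58.9 and 58.5 CPM at 0.3 μg/kg, 71.2, 57.3 and 105 CPM at 1 μg/kg, 121, 119 and 121 CPM at 3 μg/kg, and 131, 101 and 144 CPM at 30 μg/kg. At 1 μg/kg mouse 43 was still within the levels seen at 0.3 μg/kg. The log2 fold change of 0.87 at 1 μg/kg did not pass (SE 0.34, adjusted p = 0.357), and Per1 rose by 1.495 at 3 μg/kg (SE 0.34, adjusted p = 0.0263), by 1.39 at 10 μg/kg (SE 0.34, adjusted p = 0.0237) and by 1.55 at 30 μg/kg (SE 0.34, adjusted p = 0.00533). The call was lost in 8 of 15 alternative analyses at 3 μg/kg (adjusted p up to 0.301), in 6 at 10 μg/kg (up to 0.335) and in 1 at 30 μg/kg (0.190). At 3 μg/kg leaving out any 1 of the 6 mice compared was enough, and at 10 μg/kg any 1 of the vehicle mice, mouse 58 or mouse 59.

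The 250 bases before the annotated starts of these genes were searched for elements through which the loop acts on itself, because Per1, Per3 and Cry1 did not all change in the same direction. The RefSeq promoter table (GRCm38.p6) held 9 of the 10 genes in 13 start windows, and held no entry for Per2. The E-box CACGTG, bound by the activator pair, was found on either strand for Per1 and Cry1, and 6.86% of all 27025 genes held it in a start window. The D-box TTATGNAA, bound by DBP, TEF and HLF (activating) and NFIL3 (repressing), was found for Per1 and Per3 (3.63% of all genes). The element TAGGTCA, bound by REV-ERB and ROR receptors, was found for none of the 9 (2.55% of all genes). The AhR core, taken as TNGCGTG, was found for Cry1 and Nr1d1 (4.76% of all genes). The paper gives the shorter GCGTG for dioxin response elements. It was not searched for, and windows of other members, among them Npas2 and Nr1d2, also hold it. Another start window of Per1 held none of the searched elements. The E-box, D-box and AhR core of the lines below are in capitals, with 11 bases on each side, 5′ to 3′ on the strand of the gene, so the AhR core, matched on the opposite strand, reads as its reverse complement.
Per1 E-box, chr11:69098772-69098799, plus strand, 166 bases before the start, within the Per1 gene outside its exons: gcacccaagtcCACGTGcagggatgtgt
Per1 D-box, chr11:69098914-69098943, plus strand, 24 bases before the start, within the Per1 gene outside its exons: agggcctggcaTTATGCAAcccgcctccca
Per3 D-box, chr4:151044852-151044881, minus strand, 205 bases before the start, within Camta1: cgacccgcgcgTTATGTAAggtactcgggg
Per3 D-box, chr4:151044805-151044834, minus strand, 158 bases before the start, within Camta1: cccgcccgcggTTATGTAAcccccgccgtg
Cry1 E-box, chr10:85185098-85185125, minus strand, 60 bases before the start, intergenic: gtgccggtggtCACGTGgggtgcatgcc
Cry1 AhR core, chr10:85185224-85185252, minus strand, 187 bases before the start, intergenic: agtccggatccCACGCGAgaactcaggtc
Nr1d1 AhR core, chr11:98775555-98775583, minus strand, 195 bases before the start, intergenic: ggctttccaaaCACGCCAccctgactctt
Per1 and Cry1, which share the E-box, changed in opposite directions, while Per1 and Per3, which share the D-box, both rose. A match is a description of these letters only, and elements farther from the starts were not searched.

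Nr1d1 (ENSMUSG00000020889, chr11:98767932-98775333, minus strand), which encodes REV-ERBα, the repressor of Arntl, had gone furthest of the loop at 0.3 μg/kg and was highest at 1 μg/kg. It was 25.3, 39.8 and 28.7 CPM with vehicle, 94.0, 107 and 101 CPM at 0.3 μg/kg, 214, 130.4 and 159 CPM at 1 μg/kg, 208, 125 and 140.1 CPM at 10 μg/kg, and 108, 80.3 and 89.2 CPM at 30 μg/kg. The mice at 30 μg/kg lay below every mouse from 1 to 10 μg/kg and overlapped those at 0.3 μg/kg. Nr1d1 rose by 2.43 at 1 μg/kg (SE 0.37, adjusted p = 0.00364), a 5.38-fold change, by 2.33 at 10 μg/kg (SE 0.36, adjusted p = 0.00107) and by 1.57 at 30 μg/kg (SE 0.36, adjusted p = 0.00754). The difference of -0.77 between 30 and 10 μg/kg did not pass the adjustment (SE 0.34, adjusted p = 0.820), although all 3 mice at 30 μg/kg were lower. Nr1d1 lies opposite the 3′ end of Thra, which had up to 988 counts in a mouse, and whether the counting used strand was not given in the sources used here, so reads in the shared stretch could not be assigned with certainty.

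At 0.3 μg/kg the change of Nr1d1 was 1.69 (SE 0.36) with an adjusted p of 0.937 in the fit of all 27 mice, which share 1 estimate of the spread. With mouse 14 left out the same change had an SE of 0.23 and an adjusted p of 0.00132. Nr1d2 also passed at 0.3 μg/kg in that fit, with a log2 fold change of 0.86 (SE 0.12, adjusted p = 0.00250). These were the 2 clock genes among 4 genes in all called at that dose without mouse 14.

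Nr1d2 (ENSMUSG00000021775, chr14:18204054-18239127, minus strand), which encodes REV-ERBβ, had an SD between mice of a dose of 0.33 on the log2 scale with all mice and 0.16 without mouse 14, against a median of 0.21 over all genes in both cases. It was 36.0, 48.7 and 45.1 CPM with vehicle, 76.1, 89.1 and 69.6 CPM at 0.3 μg/kg, 142, 119.7 and 145 CPM at 1 μg/kg, and 153, 131 and 160.3 CPM at 30 μg/kg. The level changed little above 1 μg/kg, where the difference between 30 and 1 μg/kg was 0.13 on the log2 scale (95% interval -0.35 to 0.60, adjusted p = 0.838). Nr1d2 rose by 1.65 at 1 μg/kg (SE 0.25, adjusted p = 0.00429) and by 1.78 at 30 μg/kg (SE 0.26, adjusted p = 0.000129).

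**Figure D2:**
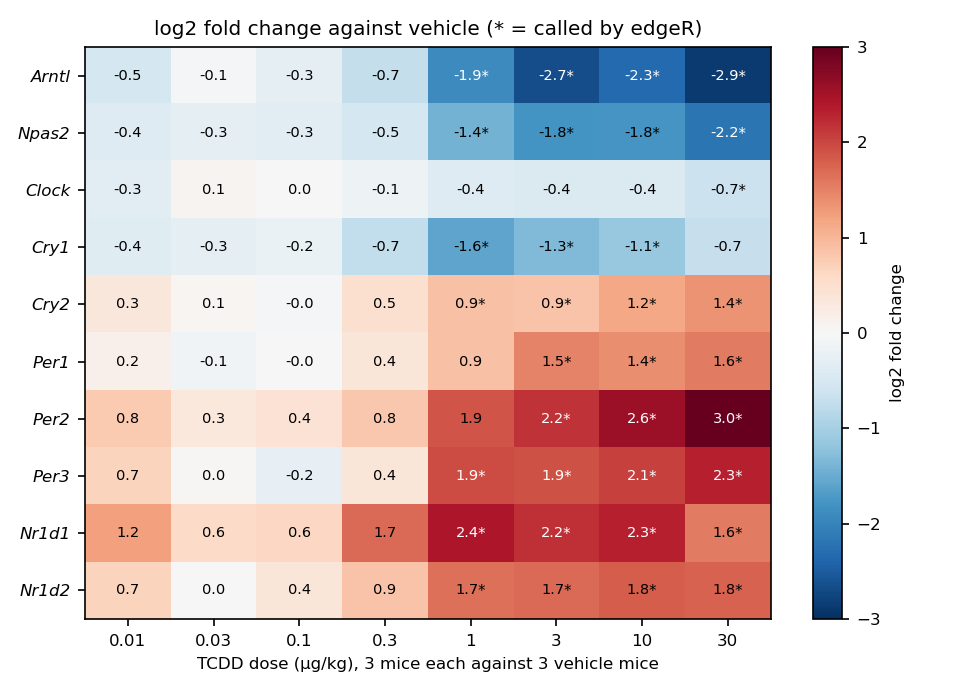
Log2 fold change against vehicle for each clock gene (rows) at each TCDD dose in μg/kg (columns), 3 mice against 3, with an asterisk where edgeR's adjusted p was under 0.05 and the fold at least 1.5. Calls began at 1 μg/kg, and the largest values were 3.00 for Per2 and -2.86 for Arntl at 30 μg/kg.

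Counted over the loop, 7 of the 10 genes passed the threshold (adjusted p under 0.05 and at least 1.5-fold) against vehicle at 1 μg/kg, where 0.200% of the 16496 genes tested did. Of these, 4 rose (Per3, Cry2, Nr1d1 and Nr1d2; 0.139% of all genes rose) and 3 fell (Arntl, Npas2 and Cry1; 0.0606% fell). At 3 μg/kg 9 were called, 6 higher and 3 lower, beside 0.697% of all genes (0.303% higher and 0.394% lower). At 10 μg/kg it was again 6 higher and 3 lower, beside 1.78% of all genes (0.812% higher and 0.970% lower). At 30 μg/kg 9 were called, with Clock now among the lower and Cry1 no longer, beside 6.16% of all genes (2.95% higher and 3.21% lower). These comparisons share the same 3 vehicle mice. Thus 7 of the 33 genes called at 1 μg/kg belonged to the loop, as did 9 of the 1016 called at 30 μg/kg. These counts are descriptions, since the loop was chosen with earlier results of these data known.

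At 0.01, 0.03, 0.1 and 0.3 μg/kg edgeR called 0 of the 10 clock genes, and 0% of all genes passed at each of these doses. DESeq2 and limma voom also called 0 of the 10 at these doses. At an unadjusted p under 0.05 the counts of clock genes were 2, 0, 0 and 4, beside 6.35%, 4.64%, 6.37% and 5.19% of all genes. The 2 at 0.01 μg/kg were Nr1d1 (1.23) and Nr1d2 (0.67), whose log2 fold changes without mouse 14 were 0.32 and -0.02. Without it 3 others, Clock (-0.44), Per1 (-0.69) and Per3 (-0.42), had an unadjusted p under 0.05 at that dose, beside 10.1% of all genes, and none passed the adjustment. At 0.3 μg/kg the 3 mice of 7 clock genes lay outside the vehicle range, 4 above it and 3 below it, which was true of 12.4% of all genes tested. At 1 and at 30 μg/kg all 10 lay outside it, 6 above and 4 below, beside 16.2% and 29.7% of all genes. The median size of the log2 change over the 10 genes was 0.62 at 0.3 μg/kg and 1.62 at 1 μg/kg, while over all genes it was 0.12 and 0.15.

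The count at 1 μg/kg depended on single mice. It was 0 without vehicle mouse 2, where the adjusted p of Per3, Cry2, Nr1d1 and Nr1d2 was 0.0662 in each case. It was 2 without vehicle mouse 3, vehicle mouse 4, mouse 41 or mouse 44, and 5 without mouse 43. Of the 21 mice outside the groups compared, which enter only the estimate of the spread, the scaling and the filter, leaving out mouse 9, 11, 14, 25, 33 or 35 gave 8, mouse 49 gave 6 and each of the other 14 gave 7. Over 15 alternative analyses at this dose the call was lost in 9 for Arntl, 7 for Npas2, 6 for Per3, 8 for Cry1, 7 for Cry2 and 1 each for Nr1d1 and Nr1d2. A term for the barcode round left 2, 0, 2 and 8 called for 1, 3, 10 and 30 μg/kg, with each fold change in the same direction. In that fit the round was estimated from the 3 mice at 1 μg/kg alone, and if mouse 41 belongs to the second round, round and dose cannot be told apart. Within 1 μg/kg, mouse 41 of the first round had 18.1 CPM of Arntl and 131 CPM of Per3, and mice 43 and 44 of the second had 23.8 and 10.1 CPM of Arntl and 96.9 and 113 CPM of Per3.

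To follow the balance of the loop in each mouse, the mean log2 CPM of the 3 activators was subtracted from that of the 7 repressors. This arm difference was -1.56 ± 0.13 (SD, n = 3) with vehicle, and -1.39 ± 0.17, -1.26 ± 0.20 and -0.57 ± 0.14 with 0.03, 0.1 and 0.3 μg/kg. It was higher in all 12 mice at the higher doses than in any other mouse but mouse 14, with means of 0.85 ± 0.51, 1.34 ± 0.21, 1.42 ± 0.40 and 1.88 ± 0.22 for 1, 3, 10 and 30 μg/kg. The score sets genes of different length side by side, so its change between doses can be read but not its sign. The groups at 0.1 and 0.3 μg/kg, and at 0.3 and 1 μg/kg, did not overlap. The groups at 3 and 10 μg/kg did overlap (1.10 to 1.495 and 1.01 to 1.81). At 0.01 μg/kg the mean of -0.71 ± 1.38 joined mice 9 and 11 (-1.63 and -1.37) with mouse 14 (0.88). No test was made of this score, since its genes were chosen with results known.

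**Figure D3:**
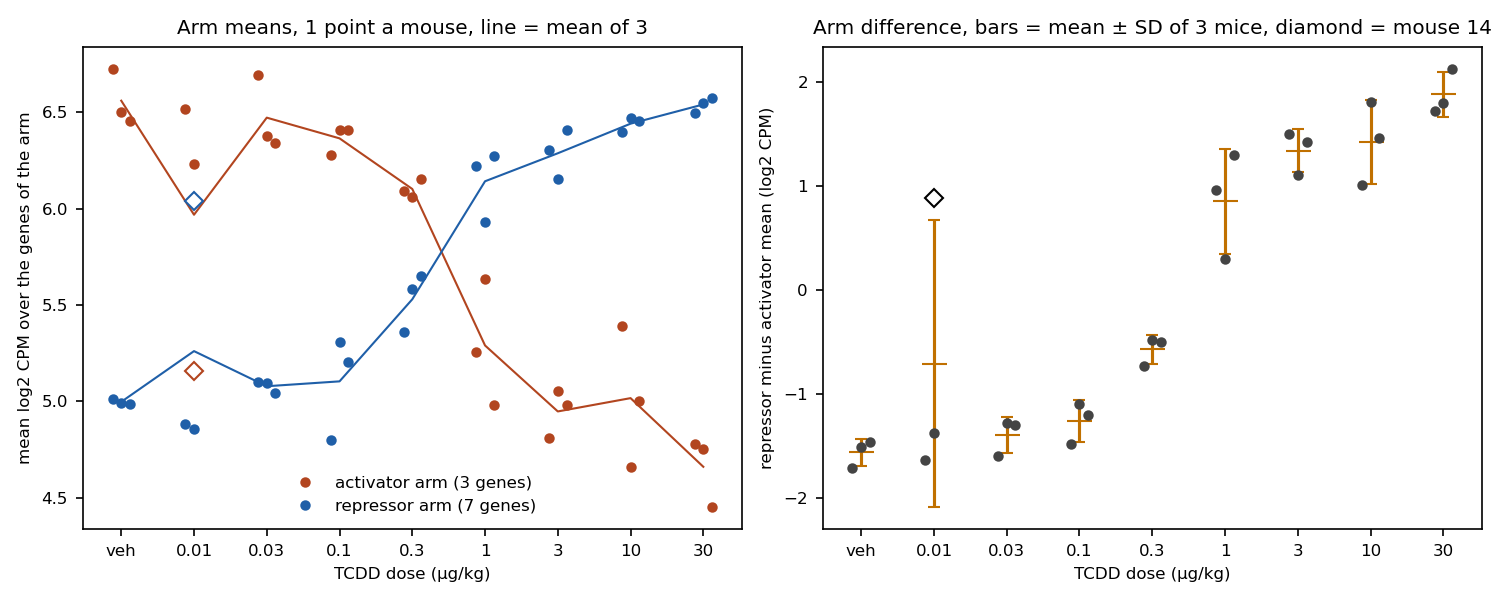
Left, mean log2 CPM of the 3 activators and of the 7 repressors (y axis) by TCDD dose in μg/kg, with 1 point for each mouse and lines through the means of 3 mice. Right, repressor minus activator mean for each mouse with mean ± SD of 3 mice, diamonds marking mouse 14 in both, which shows the 12 mice from 1 μg/kg upward above all others except mouse 14. Levels are not divided by gene length, so the place where the lines meet has no meaning.

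Both arms contributed. The activator mean went from 6.56 ± 0.14 with vehicle to 4.66 ± 0.18 at 30 μg/kg, and the repressor mean from 5.00 ± 0.01 to 6.54 ± 0.04 (log2 CPM, SD, n = 3). The difference between 30 μg/kg and vehicle was 3.44, and it was 3.83 with Cry1 taken out of the repressors.

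Levels were also compared between genes after division by exon length. In vehicle mice Npas2 was the highest at 17.5 ± 1.5 CPM per kb (SD, n = 3), followed by Cry1 at 12.4 ± 1.1, Clock at 11.4 ± 1.0 and Nr1d1 at 10.2 ± 2.5, and the ranges of 1 SD of Cry1, Clock and Nr1d1 overlapped. Per3 (3.07 ± 0.45) and Per2 (2.63 ± 0.53) were lowest and also within their spread. At 30 μg/kg the order had changed, with Nr1d1 (30.0 ± 4.6), Nr1d2 (27.4 ± 2.9), Per1 (22.2 ± 4.0) and Per2 (21.0 ± 2.0) at the top and Npas2 (3.85 ± 0.32) and Arntl (1.19 ± 0.33) at the bottom. Among the activators, Clock at 7.24 ± 1.61 CPM per kb was then above Arntl and Npas2.

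The order in which the genes changed was read from dose means without mouse 14. Arntl and Npas2 had every mouse outside the vehicle range from 0.1 μg/kg upward, Per1, Cry1, Cry2, Nr1d1 and Nr1d2 from 0.3 μg/kg, and Clock, Per2 and Per3 from 1 μg/kg. For Arntl the margin at 0.1 μg/kg was small (highest 54.2 CPM, lowest vehicle mouse 54.7 CPM). The share of all genes outside the vehicle range from a given dose upward was not counted. This order also differs from that of the shares that follow. As a share of each gene's largest log2 change, Nr1d1 had reached 70% at 0.3 μg/kg, Nr1d2 47%, Cry1 46% and Cry2 36%, whereas Per2 (27%), Arntl and Npas2 (25% each), Per1 (23%), Clock (22%) and Per3 (16%) had gone a smaller part of the way. At 1 μg/kg Nr1d1 and Cry1 were at 100%, Nr1d2 at 91% and Per3 at 84%, and the others between 56% (Per1) and 67% (Arntl). At 30 μg/kg Nr1d1 was back at 64% and Cry1 at 44%, while Nr1d2 was highest at 10 μg/kg and the other 7 were at their extreme. The range between lowest and highest dose means ran from 1.68-fold for Clock and 2.64-fold for Cry2 to 7.27-fold for Arntl and 9.62-fold for Per2. These shares are descriptions, and the difference between genes in the dose of change was not tested.

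**Figure D4:**
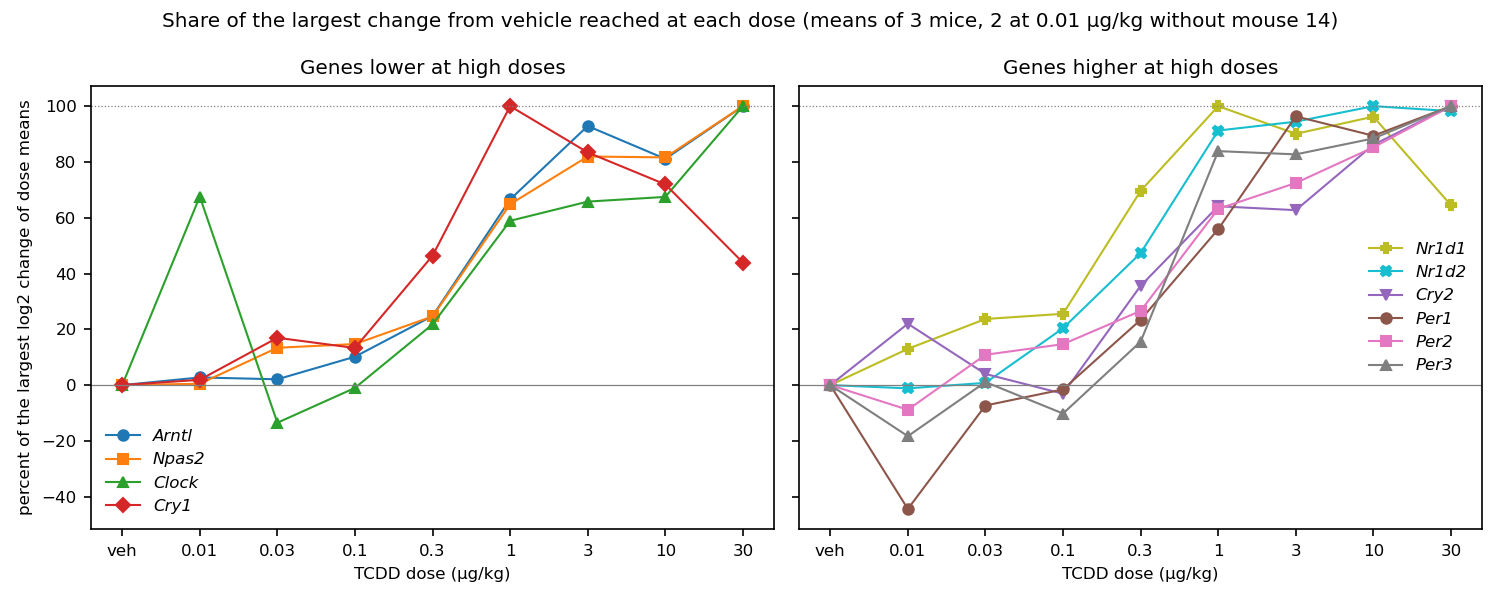
Share of each gene's largest log2 change from vehicle (y axis, percent) reached at each TCDD dose in μg/kg (x axis), from means of 3 mice, or 2 at 0.01 μg/kg without mouse 14, for the genes that were lower (left) and higher (right) at high doses. Nr1d1 led at 0.3 μg/kg with 70%, and Nr1d1 and Cry1 turned back to 64% and 44% at 30 μg/kg.

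Between neighbouring doses, edgeR called 0 of the 10 genes in any of the 7 steps. The share of all genes called was 0% for 0.03 against 0.01, for 0.1 against 0.03, for 0.3 against 0.1 and for 30 against 10 μg/kg, and it was 0.00606% for 1 against 0.3 μg/kg (1 gene, Cyp1a1), 0.0242% for 3 against 1 and 0.0485% for 10 against 3 μg/kg. DESeq2 and limma voom also called 0 clock genes in each step. At an unadjusted p under 0.05, 8 of the 10 differed in the step from 0.3 to 1 μg/kg, beside 6.01% of all genes. In the steps up to 0.3 μg/kg the counts were 2, 0 and 2 (5.36%, 2.78% and 4.90% of all genes), and in those above 1 μg/kg they were 0, 0 and 1 (7.16%, 4.80% and 6.00% of all genes). The median size of the log2 difference from 0.3 to 1 μg/kg was 0.82 over the 10 genes and 0.12 over all genes. That this step was large was known from earlier results of these data.

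In that step Per3 differed most, by 1.59 (SE 0.34, 95% interval 0.91 to 2.26, adjusted p = 0.258), and Arntl by -1.20 (SE 0.39, adjusted p = 0.632). Without mouse 14 Per3 (1.59, SE 0.15, adjusted p = 5.46e-06) and Nr1d2 (0.80, SE 0.12, adjusted p = 0.00300) passed. Per1 (0.50, 95% interval -0.14 to 1.15) and Clock (-0.24, 95% interval -0.56 to 0.07) were the 2 genes whose step did not reach an unadjusted p of 0.05.

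Compared with 1 μg/kg, no clock gene passed at 30 μg/kg, and the differences did not all point away from vehicle. Between 30 and 1 μg/kg edgeR called 0 of the 10 genes beside 1.78% of all genes, with 7 of the 10 at an unadjusted p under 0.05 beside 18.1% of all genes. The differences were 1.11 for Per2 (SE 0.39, adjusted p = 0.131), 0.48 for Cry2 (SE 0.16, adjusted p = 0.104), -0.76 for Npas2 (SE 0.29, adjusted p = 0.165) and -0.95 for Arntl (SE 0.42, adjusted p = 0.232) while Nr1d1 (-0.86, SE 0.34, adjusted p = 0.178) and Cry1 (0.89, SE 0.31, adjusted p = 0.131) differed toward the vehicle level. Without mouse 14, Per2 (adjusted p = 0.0260), Npas2 (adjusted p = 0.0298) and Nr1d1 (adjusted p = 0.0336) passed, and without mouse 65 Cry2 passed. Within the second barcode round, 30 against 3 μg/kg gave 0 of the 10 beside 0.461% of all genes, with 2 at an unadjusted p under 0.05 beside 1810 of all genes tested, and without mouse 65 Cry2 passed there too. DESeq2 and limma voom called 0 in both comparisons.

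Mouse 14 had been given 0.01 μg/kg, a dose at which the arm difference of its 2 group mates lay near that of vehicle mice. Its Arntl was 11.8 CPM against 71.5 and 51.4 CPM in mice 9 and 11, its Per3 97.6 CPM against 18.5 and 25.4 CPM, and its Nr1d1 142 CPM against 32.9 and 44.9 CPM. For 7 of the 10 genes its level lay inside the range of the 12 mice at 1 to 30 μg/kg, and Per2 (54.6 CPM) was just under that range (lowest 55.1 CPM). These 7 were outside the range of the other 14 mice at 0 to 0.3 μg/kg. The same count over all genes was not made. Clock (149 CPM) and Cry2 (42.1 CPM) were inside the range of the other 14 mice at 0 to 0.3 μg/kg. Cyp1a1, a gene strongly induced through AhR, was at or under 0.0871 CPM in all 3 mice of this dose. The other 26 mice fell into ranges that did not overlap between 0 to 0.3 and 1 to 30 μg/kg for 5 of the 10 genes, namely Arntl, Npas2, Per2, Per3 and Nr1d2, which was true of 0.352% of all genes tested.

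**Figure D5:**
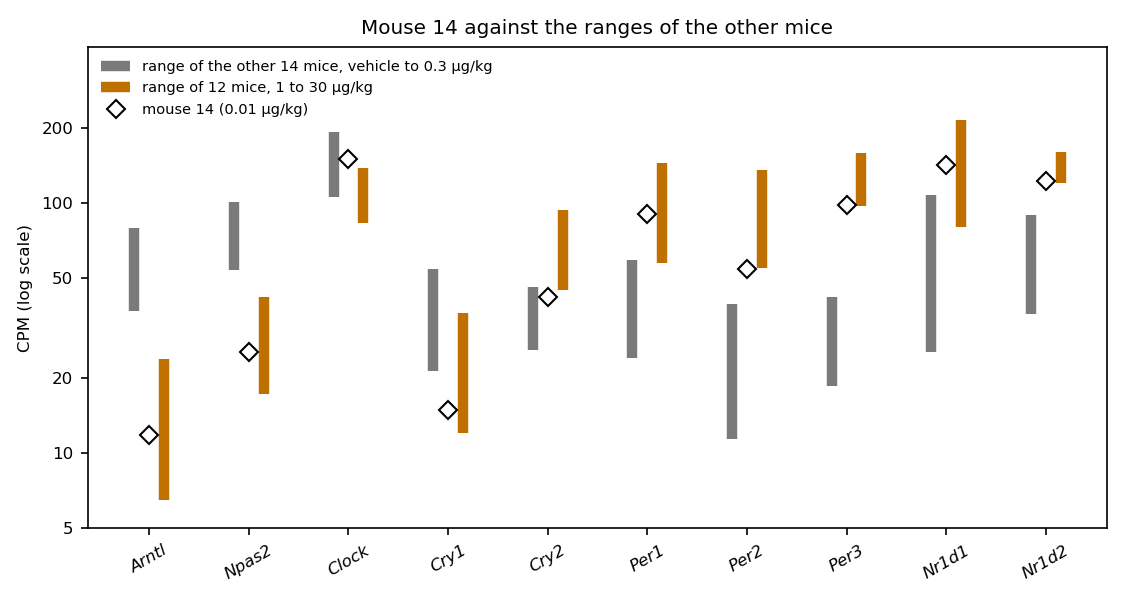
CPM (y axis, log scale) of each clock gene in mouse 14 (open diamond) beside the range of the other 14 mice from vehicle to 0.3 μg/kg (grey bar) and that of the 12 mice from 1 to 30 μg/kg (orange bar). The diamond lies within the orange bar for 7 genes and within the grey bar for Clock and Cry2, and the same count over all genes was not made.

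Cyp1a1 was followed as 1 AhR target gene in the same mice. It was at or under 0.137 CPM in each of the 12 mice from vehicle to 0.1 μg/kg, between 0.419 and 0.518 CPM at 0.3 μg/kg, between 3.87 and 7.33 CPM at 1 μg/kg, and between 2066 and 2427 CPM at 30 μg/kg. Its groups at 1, 3, 10 and 30 μg/kg did not overlap, each above the one before. The log2 fold change of Cyp1a1 against vehicle was 6.19 at 1 μg/kg (SE 0.81) and 14.8 at 30 μg/kg (SE 0.53). Of 5 AhR target genes, 1 was called higher at 1 μg/kg, 3 at 3 and at 10 μg/kg, and 5 at 30 μg/kg.

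The genes that the loop drives or that feed back on it were followed in a list of 11. At 1 μg/kg 3 rose (Dbp, Tef and Ciart) and 1 fell (Nfil3), and these 4 were called in the same directions at 30 μg/kg. Dbp, a D-box activator, was between 1.37 and 2.00 CPM with vehicle, between 12.2 and 16.7 CPM at 0.3 μg/kg and between 43.9 and 88.0 CPM at 1 μg/kg, and its log2 fold change at 1 μg/kg was 5.18 (adjusted p = 0.00628). Nfil3, which represses at the same D-boxes, fell by 3.18 at 1 μg/kg (adjusted p = 0.00364) and by 2.68 at 30 μg/kg (adjusted p = 0.000481). Tef, another D-box activator, rose by 2.82 and 3.22 at these doses (adjusted p = 0.00702 and 0.000142). Mouse 14 had 60 CPM of Dbp and 10.7 CPM of Ciart, a repressor of the activator pair, against 2.53 to 2.74 and 0.489 to 0.697 CPM in its group mates.

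At 30 μg/kg genes of this list that rose as well were Hlf (log2 fold change 3.47), Bhlhe40 (0.62) and Bhlhe41 (2.39), which encode a D-box activator and a pair of E-box repressors. Rorb, which encodes a nuclear receptor, fell by 0.78 (adjusted p = 0.0326). The median log2 fold change of the list was 0.62 at 1 μg/kg, beside a median over all genes of -0.01.

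Genes whose products modify or degrade clock proteins moved little. Of 9 tested, 0 were called at 1 μg/kg, and 1, Usp2, rose at 3, 10 and 30 μg/kg, with a log2 fold change of 1.79 at 30 μg/kg (SE 0.29, adjusted p = 0.000485). Usp2 encodes a protease that removes ubiquitin from clock proteins and is itself under clock control. The kinase genes Gsk3b (0.03, adjusted p = 0.808) and Csnk1d (0.23, adjusted p = 0.0735) were the most abundant of the list. The median log2 fold change of the 9 genes was 0.12 at 1 μg/kg and 0.13 at 30 μg/kg.

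Among 14556 genes outside the loop with a mean of at least 1 CPM, those whose log2 CPM followed the arm difference most closely over the 27 mice were Tef (r = 0.98), Cipc and Ciart (0.96 each), Syt7 and Dbp (0.94 each). Cipc encodes a repressor that binds CLOCK, and its mean was 160.3 CPM with vehicle and 322 CPM at 30 μg/kg. Running most strongly against it were Zfand5 and Cldn8 (-0.95 each), St5 (-0.93), Slc22a15 and E2f2 (-0.91 each). Cldn8, a claudin of the tight junctions of the distal colon, had a mean of 87.0 CPM with vehicle, 65.5 CPM at 0.3 μg/kg, 31.0 CPM at 1 μg/kg and 15.8 CPM at 30 μg/kg. The mice share dose groups and library scaling, so these values describe likeness over dose and mice together. Within the loop the same measure was -0.99 for Arntl and for Npas2, 0.97 for Nr1d2, 0.96 for Per3, 0.82 for Nr1d1, -0.73 for Cry1 and -0.68 for Clock, all of which enter the difference themselves.

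Scrapings hold other cells beside epithelium, and in whole tissue fewer cells of a type and less RNA per cell cannot be told apart. Smooth muscle and stroma markers, summed over 10 genes of which Myh11 and Col3a1 were the most abundant, lay between 120.3 and 158 CPM with vehicle, between 56.3 and 408 CPM at 1 μg/kg, and between 128 (mouse 66) and 761 CPM (mouse 67) at 30 μg/kg. These 2 mice, with the lowest and highest sums, had 11.4 and 6.47 CPM of Arntl and 145 and 159 CPM of Per3. Of the 10 stroma and 6 immune markers 0 were called at 1 or 30 μg/kg, although the median log2 fold change of the stroma list was 0.76 and 2.20 at these doses, whereas 2 of 4 adipose markers (Fabp4 and Cidec) and 1 of 2 tested neuronal and glial markers (Uchl1) were called higher at 30 μg/kg. At 1 μg/kg mouse 44 had 56.3 CPM of stroma markers, the lowest sum of that group, and 10.1 CPM of Arntl, also its lowest, and the part of other cells in the clock values was not tested.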

How the data were processed

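The authors deposited 1 table of raw, unnormalized gene counts a mouse, in HTSeq layout. The submitters' processing notes name FastQC 0.11.3, Trimmomatic 0.33, TopHat2 2.1.0, SAMtools 1.2.0, HTSeq 0.6.1 and GRCm38, while annotation and strand setting are not given in the sources used here. Reads without a feature were 29.1 to 33.3% and reads without a unique alignment 30.7 to 37.1% of each table, and both were left out. Identifiers were matched to GENCODE M21 (GRCm38). In R 4.3.3, edgeR 4.0.16 (filterByExpr, minimum count 10, TMM) was fitted once to all 9 groups, and 17 comparisons were tested by glmQLFTest with Benjamini-Hochberg adjustment. Intervals are 95%. Log2 CPM used a prior count of 2. DESeq2 1.42.0, limma 3.58.1 and the other alternatives are given at the end, and the fit was tested on simulated data. The genes and lists were chosen with earlier results of these data known. Named outside the loop were the 5 genes with the highest and the 5 with the lowest correlation with the arm difference. From the lists, genes called at 30 μg/kg or the 2 most abundant could be named, and Epcam, Slc26a3 and Aqp8 were named outside this rule, after their values were seen. A gene that this rule names is left out of the text. Every pair of mice in a group differed by more than sampling noise (lowest χ2 divided by its degrees of freedom 5.35), so each was 1 replicate, and p-values measure the spread between them.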

Additional observations from a re-analysis of the deposited data

How the results depend on the processing

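Over 50 values of single genes and 750 alternatives, 655 kept direction and side of the threshold, 86 fell short of it, 9 newly passed it and 0 changed direction. The causes were not tested. Clock genes called at 1 μg/kg (7) became 2 with a term for the barcode round and 4 with robust dispersion, which was chosen after seeing the data, and ran from 0 to 8 with each mouse left out. With the round term the 9 at 3 μg/kg became 0 and the 9 at 10 μg/kg became 2. Each count of 0 became 1 without the filter at 0.3 μg/kg against vehicle, 1 against 0.3 and 30 against 1 μg/kg, and 1 with only the groups compared in these 3 and in 30 against 3 μg/kg. Leaving out each mouse gave 0 to 2 at 0.3 μg/kg, 0 to 2 for 1 against 0.3, 0 to 3 for 30 against 1 and 0 to 1 for 30 against 3 μg/kg. Leaving out mouse 14 gave the highest of these counts, except in the last, where it was mouse 65. The arm difference at 30 μg/kg minus vehicle was 3.44, 3.89 with medians over genes and 3.83 without Cry1. No paired analysis was possible because the mice carry numbers of their own that no 2 groups share. Each clock value rested on at least 75 counts.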
